A study of Mus musculus with 2 samples.

Results

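Transcripts of the nuclear-encoded oxidative phosphorylation machinery were compared between bone marrow cells sorted as RANKhigh c-Fmslow and cells sorted as RANKlow c-Fmshigh. The genes were chosen by symbol alone: 16 prefixes that name subunits of complexes I to V (Ndufa, Ndufb, Ndufc, Ndufs, Ndufv, Sdha to Sdhd, Uqcr, Cox4 to Cox8 and Atp5) gave 119 probe sets and 93 genes out of 19935 genes on the array. Both populations were untreated cells of 6-week-old ddY mice, recovered as mononuclear cells on a density gradient and stained for RANK, the receptor of RANKL, and for c-Fms, the receptor of M-CSF. The labels give neither the number nor the sex of the mice, and do not say whether animals were pooled. Each population was hybridised to 1 array, named here after its sort (RANKhigh array, c-Fmshigh array), so that no replicate error exists and no test was possible.

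Oxidative phosphorylation is carried out by 5 protein complexes of the mitochondrial inner membrane. Complexes I (NADH dehydrogenase) and II (succinate dehydrogenase) feed electrons to ubiquinone, complex III passes them to cytochrome c, and complex IV (cytochrome c oxidase) hands them to oxygen. Complexes I, III and IV pump protons, and complex V, the ATP synthase, uses the return of protons to make ATP. Complex II is also an enzyme of the citrate cycle and has no subunit encoded in the mitochondrial genome, unlike the other complexes. Mature osteoclasts are known to be rich in mitochondria, red cell precursors still hold them, and mature neutrophils are known to rely mainly on glycolysis.

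Of the 93 genes, 89 had an intensity of at least 93.6, the median of all values, on at least 1 array. The other 4, Cox7b2, Cox8b, Cox8c and Ndufa4l2, are tissue-restricted forms of complex IV subunits and lay below it on both arrays. Ndufa4 was counted with complex IV, with which its protein associates, and its relative Ndufa4l2 with it. Thus 41 genes belonged to complex I, 8 to complex II, 8 to complex III, 19 to complex IV and 17 to complex V, including 12 assembly or supercomplex factors that share a prefix. Ndufb4 and Cox7c were not analysed here, since no probe set was assigned to them alone.

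The populations differed widely in cell type markers. Excesses of 2-fold or more on the RANKhigh array were seen for 9 of 9 measured erythroid, 9 of 9 B-lineage, 8 of 12 neutrophil and 5 of 6 eosinophil markers, and deficits of that size for 7 of 9 monocyte markers. The intensities summed over each list were 11724 against 3110 for erythroid, 13315 against 3516 for B-lineage, 12178 against 1161 for eosinophil, 47541 against 19100 for neutrophil and 7485 against 25367 for monocyte markers (RANKhigh before c-Fmshigh). The part of these cell types in the differences given here was not tested, and in such bulk samples fewer cells of a type cannot be told apart from less RNA per cell. Csf1r, which encodes c-Fms, stood at 164 against 821, in the direction of its label, whereas Tnfrsf11a, which encodes RANK, stood at 104 against 119, so that the name RANKhigh refers to the sort and not to the transcript.

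Against this background the respiratory chain genes differed little. The median log2 difference (RANKhigh minus c-Fmshigh) of the 89 genes was 0.01, with quartiles at -0.11 and 0.14. Over all 11089 genes that passed the same level filter, the median was -0.01 and the quartiles were -0.30 and 0.25. At 2-fold or more, 1 of the 89 was higher on the RANKhigh array (Cox6a2) and 0 were lower, where 4.34% and 4.26% of all genes were. At 1.5-fold or more, 2 were higher (Cox6a2 and Ndufab1) and 2 lower (Uqcrc1 and Atp5a1), where 10.5% and 12.4% of all genes were. The 2 lower genes were inside 1.5-fold under 2 other scalings. After quantile normalization 5 members were higher and 0 lower (Uqcrc1 -0.55, Atp5a1 -0.51), and with the trend of the difference with level removed 4 were higher and 0 lower (-0.51 and -0.49). Cox6b2 and Ndufb10 joined the higher genes under both, and Ndufb9 after quantile normalization. Uqcrc1 also missed 1.5-fold with a pseudocount of 32 (-0.54). Differences within 0.25 of 0 were seen for 64 of the 89 (71.9%) and for 46.6% of all genes that passed.

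Most of these genes had high intensities, so they were also set beside genes of like level. The mean log2 intensities of the members, from their 10th to their 90th percentile, spanned intensities of 265 to 3534, and 4556 genes of the array fell in that range. Past 1.5-fold, 10.7% of them were higher and 17.3% lower, their median was -0.11, and 40.6% lay within 0.25 of 0. The 73 oxidative phosphorylation genes in the range, which are among those 4556, had a median of 0.02, and 71.2% lay within 0.25. The balance of higher and lower members moved with the scaling. As deposited, 48 were higher and 40 lower, with Ndufa7 equal. After quantile normalization 62 were higher and 27 lower (median 0.10), and with the trend of the difference with level removed 64 and 25 (median 0.13).

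**Figure D1:**
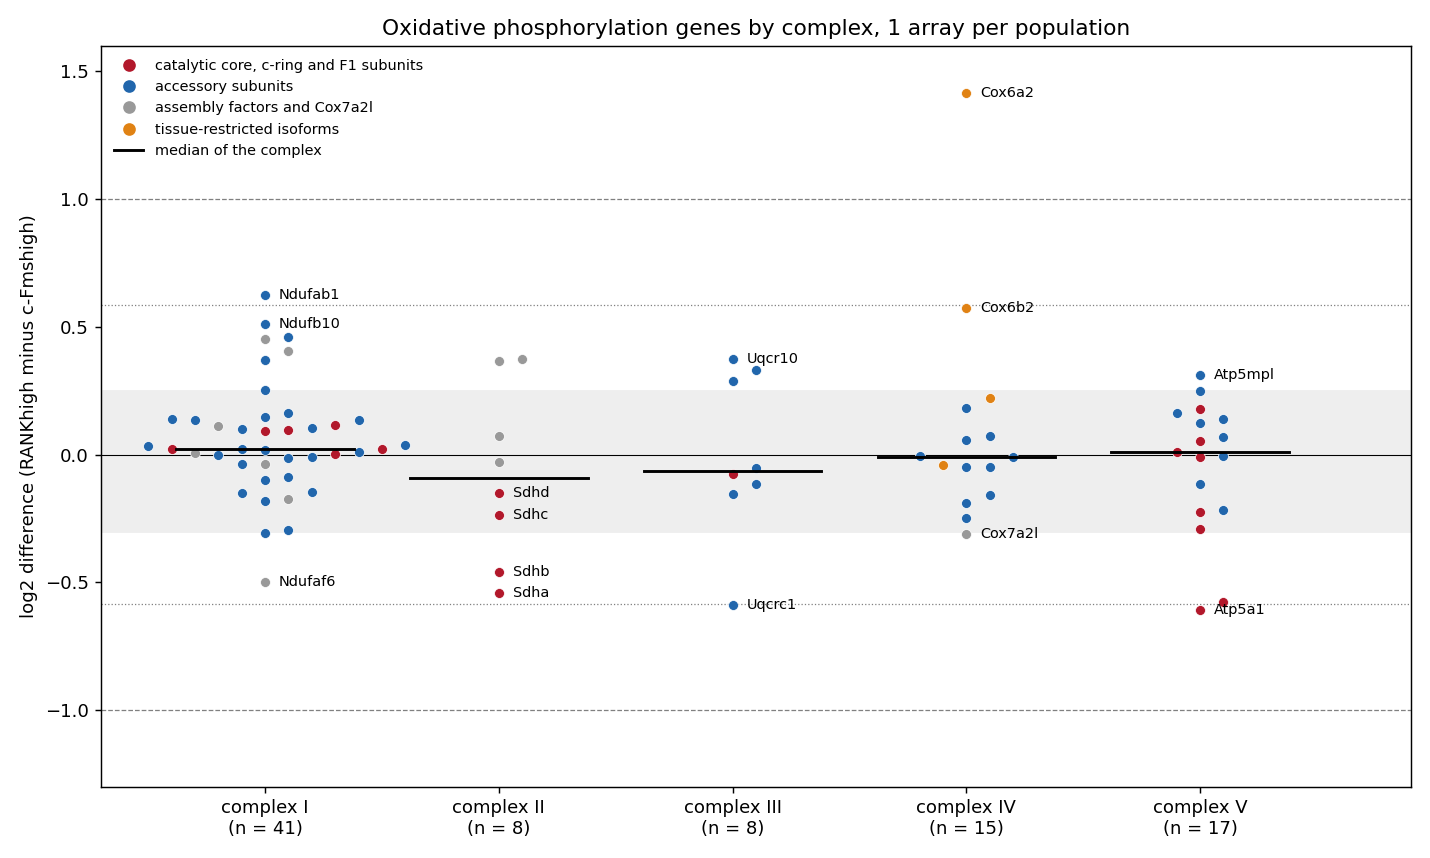
Log2 difference (RANKhigh minus c-Fmshigh) of the 89 oxidative phosphorylation genes above the level filter, 1 point per gene, in columns by complex and coloured by role. Black bars are medians of the complexes, the grey band holds the quartiles of all 11089 genes, and dotted and dashed lines mark 1.5-fold and 2-fold. Cox6a2 stands alone above 2-fold, and Sdha, Sdhb, Sdhc and Sdhd all lie below 0.

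**Figure D2:**
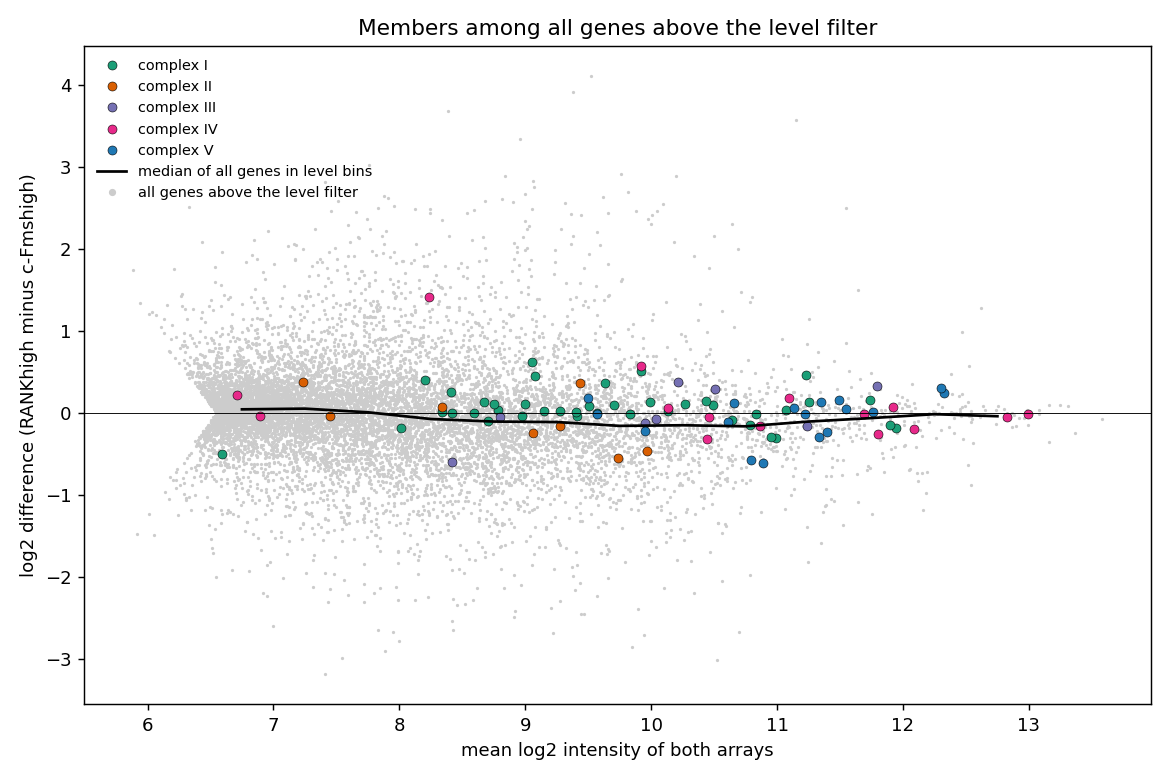
Log2 difference against mean log2 intensity of both arrays, with the 89 members coloured by complex over all 11089 genes above the level filter (grey). The black line, the median of all genes in bins of level, runs slightly below 0 at higher levels, and the members gather in a narrow band around 0.

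The promoters of the complex II subunit genes, which were all lower on the RANKhigh array, and of Ndufab1 and Uqcrc1, which lay past 1.5-fold in opposite directions in the deposited values, are shown for reference below, as far as RefSeq's table for GRCm38.p6 held them. It held no window for Sdhc, nor for Cox6a2 and Atp5a1, which were also past 1.5-fold in those values. Each window runs from 250 bases before to 50 after the annotated start and reads 5′ to 3′ on the gene's strand. Capitals mark matches on either strand to the letters of motifs known from respiratory genes: GCGCATGCG (nuclear respiratory factor NRF1), CCGGAAG (ETS factors such as GABP), AAGATGGCG (YY1) and AAGGTCA (estrogen-related receptors).
Sdha (chr13:74350191-74350490, minus strand): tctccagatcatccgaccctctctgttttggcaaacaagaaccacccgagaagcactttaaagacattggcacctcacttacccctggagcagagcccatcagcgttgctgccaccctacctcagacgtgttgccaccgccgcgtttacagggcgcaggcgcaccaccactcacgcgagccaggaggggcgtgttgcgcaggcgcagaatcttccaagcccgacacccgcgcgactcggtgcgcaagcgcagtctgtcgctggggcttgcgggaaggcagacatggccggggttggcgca
Sdhb (chr4:140961021-140961320, plus strand): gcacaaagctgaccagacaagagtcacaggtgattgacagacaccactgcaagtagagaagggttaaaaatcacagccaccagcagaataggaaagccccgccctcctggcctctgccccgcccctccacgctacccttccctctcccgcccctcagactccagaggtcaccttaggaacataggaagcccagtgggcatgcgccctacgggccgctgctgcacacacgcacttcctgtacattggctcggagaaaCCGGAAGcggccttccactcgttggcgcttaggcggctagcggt
Sdhd (chr9:50603800-50604099, minus strand): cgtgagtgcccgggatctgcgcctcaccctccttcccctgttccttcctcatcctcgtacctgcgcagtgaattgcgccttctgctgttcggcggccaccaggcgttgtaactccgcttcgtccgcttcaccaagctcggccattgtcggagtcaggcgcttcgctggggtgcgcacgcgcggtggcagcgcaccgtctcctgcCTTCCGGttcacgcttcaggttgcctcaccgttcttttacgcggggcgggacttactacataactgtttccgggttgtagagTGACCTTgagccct
Ndufab1 (chr7:122101799-122102098, minus strand): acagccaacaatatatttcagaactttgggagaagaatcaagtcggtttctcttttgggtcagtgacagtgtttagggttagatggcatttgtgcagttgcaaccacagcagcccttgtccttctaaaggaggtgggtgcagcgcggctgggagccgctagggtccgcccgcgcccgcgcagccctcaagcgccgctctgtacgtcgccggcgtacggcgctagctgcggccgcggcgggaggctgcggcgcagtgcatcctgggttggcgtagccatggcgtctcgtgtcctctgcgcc
Uqcrc1 (chr9:108936398-108936697, plus strand): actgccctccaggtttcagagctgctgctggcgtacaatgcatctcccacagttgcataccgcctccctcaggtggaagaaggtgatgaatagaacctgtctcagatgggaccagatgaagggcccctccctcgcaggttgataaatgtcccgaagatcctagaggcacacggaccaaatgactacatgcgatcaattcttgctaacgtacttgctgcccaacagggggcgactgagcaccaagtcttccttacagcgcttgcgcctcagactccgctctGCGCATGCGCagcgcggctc
The Sdha and Ndufab1 windows held none of these letters. In Uqcrc1 the capitals are an NRF1 match on each strand, the matches overlapping, and they begin at position 30 from the start. The ETS letters begin at position 6 from the start in Sdhb and at position -46 in Sdhd, and the Sdhd window also holds the estrogen-related receptor letters.

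In the deposited values, complex I genes were nearly level between the arrays. The median over 41 genes was 0.02, with a range from -0.50 to 0.62, against a median of -0.11 for all genes of the members' level range. The complex I median was 0.140 after quantile normalization and 0.138 with the level trend removed. The 6 measured core subunits, which carry the flavin and iron-sulfur clusters or line the ubiquinone site, all lay between 0.00 and 0.11. Ndufs1, the large iron-sulfur subunit of the NADH-oxidising module, stood at 759 against 758, and Ndufv1, which binds NADH and flavin, at 571 against 562. Ndufv2 stood at 1130.2 against 1114, Ndufs8 at 749 against 703, Ndufs3 at 863 against 807 and Ndufs7 at 449.6 against 415. None of these differences exceeded 0.19, the median gap between the differences given by the 2 probe sets of genes that have exactly 2. That gap was taken over 558 genes (90th percentile 0.67). It describes how far probe sets of a gene disagree and does not measure variation between replicate arrays.

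The accessory subunits of complex I, which surround the core and are needed for its assembly and stability, ranged from -0.31 to 0.62. That range was wider than over the 6 core subunits, a smaller group. Of 28, 1 was at least 1.5-fold higher and 0 lower, where 10.5% and 12.4% of all genes were. Ndufab1, the mitochondrial acyl carrier protein, which also serves in fatty acid and iron-sulfur cluster synthesis, stood at 660.4 against 429 (1.54-fold higher on the RANKhigh array). Its 2 probe sets gave 0.62 each. Ndufb10 and Ndufb9, subunits of the membrane arm, followed at 1153 against 809.8 (1.42-fold) and 2816 against 2045 (1.38-fold). Ndufs5 stood at 901 against 698 (1.29-fold). The lowest were Ndufs4, a subunit of the peripheral arm whose loss causes Leigh-like disease, at 1827 against 2259 (1.24-fold lower), Ndufb6 at 1792.5 against 2198 (1.23-fold lower) and Ndufc2 at 3699 against 4202 (1.14-fold lower). Every other accessory subunit lay between these values.

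The 7 complex I assembly factors, which help build the enzyme without staying in it, had a median of 0.01. Ndufaf1, a chaperone of the membrane arm, stood at 631 against 462 (1.37-fold higher) and Ndufaf3 at 339.7 against 256 (1.32-fold higher). Ndufaf6 stood at 81.4 against 115, and its lower value was not above the 95th percentile of 1189 chemoreceptor genes on that array (83.8), a guide to background, so that it was at least 1.37-fold lower. Ndufaf2, Ndufaf4, Ndufaf5 and Ndufaf7 lay between -0.18 and 0.11. None of the other complex I assembly factors reached 1.5-fold, and for Ndufaf6, 1.41-fold apart in its values, only the bound can be given.

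In the deposited values, all 4 measured subunits of complex II were lower on the RANKhigh array. Of genes in the members' level range, 59.7% were lower. The other complexes, with 8 to 34 measured subunits each, had subunits on both sides. Sdha, the flavoprotein that oxidises succinate, stood at 707 against 1029 (1.46-fold lower on the RANKhigh array). Sdhb, the iron-sulfur subunit, stood at 856 against 1176 (1.37-fold lower). The membrane anchors Sdhc and Sdhd, which bind heme and ubiquinone, stood at 492 against 579.8 (1.18-fold lower) and 589 against 654 (1.11-fold lower). The soluble catalytic pair therefore differed more than the anchors. The median of the 4 subunits was -0.35, against -0.11 for all genes of the members' level range. All 4 stayed below 0 under each scaling tried, Sdha at -0.42 and Sdhd at -0.03 with the level trend removed. Of the 4 complex II assembly factors, 3 were higher on the RANKhigh array and 1 lower. Sdhaf1, which serves iron-sulfur delivery to Sdhb, stood at 787 against 610.5 (1.29-fold higher) and Sdhaf4 at 172 against 132 (1.30-fold higher). Sdhaf2, needed for flavin attachment to Sdha, stood at 332 against 316 (1.05-fold higher) and Sdhaf3 at 173 against 176.5 (1.02-fold lower). The 2 probe sets of Sdhaf4 gave 0.16 and 0.59. With these 4 factors included, the median of complex II was -0.09.

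Complex III genes were divided. Uqcrc1, a large core protein of the matrix side, stood at 278 against 419 (1.51-fold lower on the RANKhigh array), whereas its partner Uqcrc2 stood at 952 against 1031 (1.08-fold lower). Uqcrfs1, the Rieske iron-sulfur protein, stood at 1025.5 against 1081.5 (1.05-fold lower). Small subunits were higher in 3 cases: Uqcr10 at 1349 against 1040.5 (1.30-fold), Uqcrh, the hinge protein at the cytochrome c1 site, at 3983 against 3163 (1.26-fold) and Uqcrb, which lies near a ubiquinone site, at 1612 against 1320 (1.22-fold). The 3 probe sets of Uqcrb ranged from 0.11 to 0.52. Uqcrq (2296 against 2553) and Uqcr11 (437 against 452) were close. The median of the 8 genes was -0.06. Cytochrome c1 itself, the heme-bearing subunit of this complex, is encoded by Cyc1, which the prefixes do not cover. It was 1.54-fold higher on the RANKhigh array at 982 against 638.

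In the deposited values, the ubiquitous subunits of complex IV were close to level, and a tissue-restricted isoform gave the largest difference of the whole set. The 10 ubiquitous nuclear subunits measured had a median of -0.03, from Cox4i1, the largest nuclear-encoded subunit, at 3282 against 3901 (1.19-fold lower) to Cox7a2 at 2327 against 2050.1 (1.14-fold higher). Cox6b1, which faces cytochrome c, stood at 8141 against 8191, Cox6c at 7148 against 7397, and Ndufa4 at 3299 against 3310.2. Cox5b, the zinc-binding subunit, stood at 4072 against 4639 and Cox5a at 1385 against 1434. Cox7b stood at 1769 against 1975.5 and Cox8a at 1149 against 1103. Cox7a2l, which joins complexes III and IV in supercomplexes, stood at 1249 against 1552 (1.24-fold lower), and its 2 probe sets gave -0.32 and -0.31.

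Cox6a2, the heart and skeletal muscle form of subunit VIa, had an intensity of 491 in the RANKhigh population against 184 in the c-Fmshigh population, a 2.66-fold excess. Its ubiquitous partner Cox6a1 stood at 3970.5 against 3774 (1.05-fold). The Cox6a2 difference of 1.41 became 1.44 after quantile normalization and 1.48 with the level trend removed. Cox6b2, the testis form of subunit VIb, was also higher, at 1181 against 793 (1.49-fold, just under the threshold), beside Cox6b1 at a difference of -0.01. Each of these genes has 1 probe set, and intensities of different probe sets cannot be ranked against each other. Cox7a1, the muscle form of subunit VIIa, stood at 113 against 97.1 and Cox4i2, the lung form induced by low oxygen, at 117 against 120.4, both above the chemoreceptor guide. The 4 remaining isoforms were below that guide (83.8 and 81.8) on both arrays, Cox7b2 at 35.4 against 32.9, Cox8b at 57.4 against 52.9, Ndufa4l2 at 62.9 against 61.8 and Cox8c at 81.2 against 72.9, so no difference can be stated for them.

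Markers of cells known to use Cox6a2 moved in the following way. None of 8 skeletal muscle markers reached 1.5-fold (median 0.07), their summed intensities were 865 against 797, and the myosin genes Myh1 (40.8 against 41.8), Myh2 and Myh4 were below the guide on both arrays. Among 7 plasmacytoid dendritic cell markers, 5 were higher on the RANKhigh array and 2 lower (median 0.49), with summed intensities of 3889 against 3519. Spib and Ly6d, which B-lineage cells also use, were past 2-fold in excess and Pld4 past 2-fold in deficit. Siglech, a surface marker of these cells, stood at 285 against 166. Bst2 stood at 497 against 354, Tcf4 at 675 against 527 and Irf7 at 136 against 191. Which cells carried the Cox6a2 transcript was not tested.

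**Figure D3:**
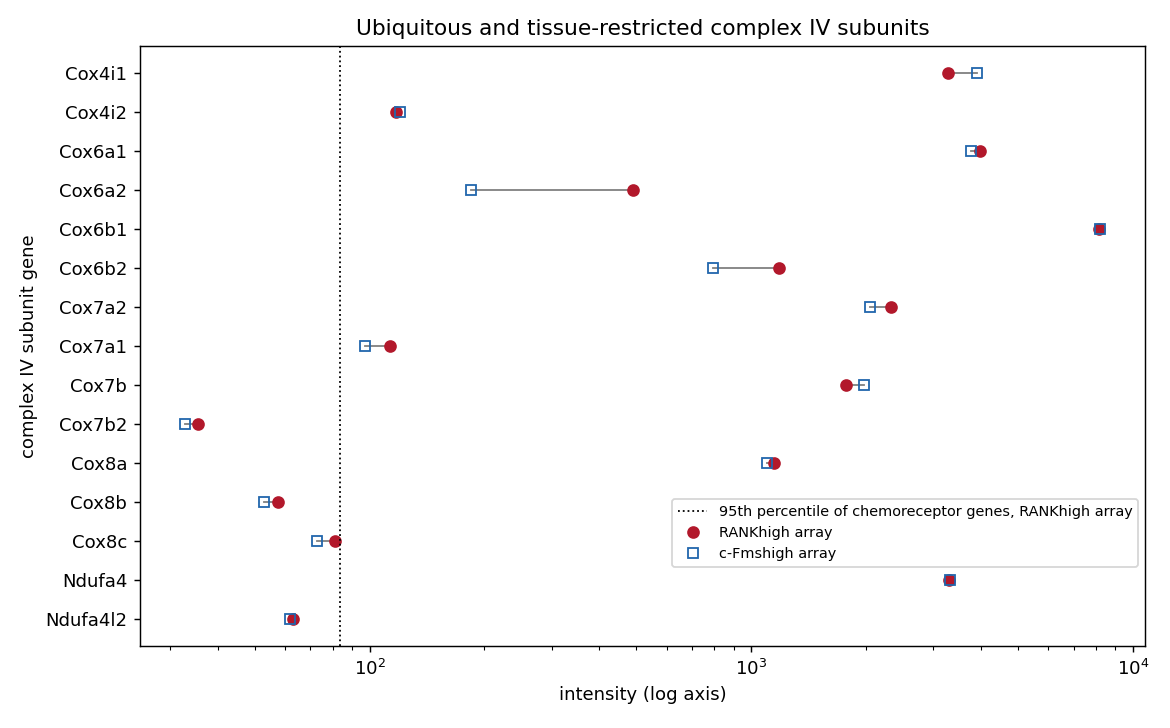
Intensity (log axis) of complex IV subunits, with filled circles for the RANKhigh array and open squares for the c-Fmshigh array, ubiquitous forms each followed by their tissue-restricted forms. Only the distance between the 2 symbols of a gene can be read, not levels between genes: Cox6a2 (491 against 184) and Cox6b2 (1181 against 793) have the longest lines, and Cox7b2, Cox8b, Cox8c and Ndufa4l2 lie left of the dotted background guide.

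The median of complex V was 0.01 over 17 genes in the deposited values, with both higher and lower members. It was 0.114 after quantile normalization and 0.115 with the level trend removed. The catalytic head, F1, is a ring of alpha and beta subunits around a central stalk. Atp5a1, the alpha subunit, stood at 1536 against 2341 (1.52-fold lower on the RANKhigh array), Atp5b, the catalytic beta subunit, at 2493 against 2916 (1.17-fold lower) and Atp5c1, the gamma subunit of the stalk, at 2334 against 2854 (1.22-fold lower). The small stalk subunits did not share this: Atp5d stood at 768 against 678 (1.13-fold higher) and Atp5e at 3482 against 3460 (1.01-fold higher). Atp5a1, Atp5b and Atp5c1 stayed below 0 under each scaling tried, at -0.49, -0.12 and -0.18 with the level trend removed.

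The same mature c subunit of the proton-driven ring is encoded by 3 genes with different import peptides, and they did not move alike. Atp5g2 stood at 1448 against 2161 (1.49-fold lower, just inside the 1.5-fold threshold), with its 3 probe sets from -0.67 to -0.48. Atp5g1 stood at 756 against 761 and Atp5g3 at 3057 against 2943. Among the peripheral stalk and membrane subunits Atp5pb was lowest (917 against 1065, 1.16-fold) and Atp5h followed (1505 against 1628.5). The small membrane subunits were higher on the RANKhigh array, Atp5mpl at 5619 against 4527 (1.24-fold), Atp5j2 at 5581 against 4702 (1.19-fold), Atp5k at 3054 against 2728 (1.12-fold) and Atp5md at 2728 against 2480.2 (1.10-fold). Atp5l, whose 6 probe sets lay between 0.02 and 0.10, stood at 2300.0 against 2196. The stalk subunits Atp5o (1684 against 1546) and Atp5j (2383 against 2392) were close.

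The other genes of the pathway were taken from lists and compared in the same way. Citrate cycle genes were lower on the RANKhigh array in 16 of 17 cases, with a median of -0.34, where 59.7% of genes in the members' level range were lower, with a median of -0.11. At 1.5-fold or more 0 were higher and 3 (17.6%) lower, a share near the 17.3% of genes in that level range: Suclg2, a succinyl-CoA ligase subunit (222 against 416, 1.87-fold), Fh1, fumarase (542 against 864, 1.59-fold) and Pdha1, of pyruvate dehydrogenase (449 against 705, 1.57-fold). Cs, citrate synthase, stood at 903 against 1256 and Mdh2 at 1817 against 1904.5. Pcx, pyruvate carboxylase, was the gene above 0 (107 against 83.9). After quantile normalization, and with the level trend removed, 14 of 17 were lower, with 2 of them past 1.5-fold under the first and 1 under the second.

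Among carriers and electron shuttles, the ADP/ATP carriers Slc25a4 (865 against 1136) and Slc25a5 (1727 against 2149) and the phosphate carrier Slc25a3 (1723 against 2090.5) were 1.31-fold, 1.24-fold and 1.21-fold lower, and the outer membrane channel Vdac1 1.75-fold lower (372 against 649). Atpif1, the inhibitor protein of the ATP synthase, which is also needed for heme synthesis, was 1.49-fold higher (7210 against 4827). Past 1.5-fold, 0 of the 7 genes of this list that passed the filter were higher and 1 (14.3%) lower, where 12.4% of all genes and 17.3% of those in the level range were lower. Cycs, somatic cytochrome c, stood at 848 against 1047 (1.24-fold lower) and Hccs, which attaches its heme, at 273 against 356 (1.31-fold lower), opposite to Cyc1. Of the genes of the mitochondrial genome, 2 were measured, the complex IV subunit gene COX2 at 6146 against 5588 (1.10-fold higher) and the complex I subunit gene ND3 at 2158 against 2088 (1.03-fold higher).

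Assembly factors outside the prefixes had a median of -0.22 over 31 genes above the filter, with 22 lower (71.0%) and 9 higher. Of all genes that passed, 51.1% were lower, and of those in the members' level range 59.7%. Coa5, a complex IV factor, was 2.19-fold lower (729 against 1596). Uqcc1, a complex III factor, was at least 1.76-fold lower (78.4 against 147, the lower value not above the guide) and Foxred1, of complex I, 1.52-fold lower (101 against 154). Surf1, a complex IV factor mutated in Leigh syndrome, stood at 337 against 503 (1.49-fold lower). The copper chaperone Cox17 had the highest difference (3638 against 2555, 1.42-fold). None was at least 1.5-fold higher, and 3 (9.68%) were at least 1.5-fold lower, where 12.4% of all genes were.

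Regulators of mitochondrial biogenesis had a median of 0.20 over 15 genes above the filter. The median was -0.01 over all genes that passed and -0.11 over those in the members' level range. By their values, 1 was at least 1.5-fold higher and 2 lower, where 10.5% and 12.4% of all genes were. Myc, a growth regulator that drives mitochondrial genes among many others, was 1.73-fold higher (710.0 against 409). Tfb1m, a methyltransferase of mitochondrial ribosomal RNA, passed 1.5-fold in the other direction (162 against 289, 1.79-fold lower). Twnk, the mitochondrial DNA helicase, was 1.55-fold apart in its values (78.9 against 122). Its value on the RANKhigh array was not above the guide, so only a bound of 1.46-fold lower can be given, short of 1.5-fold. Tfam, which packages mitochondrial DNA, stood at 367 against 319 and Nrf1 at 274.5 against 252. Ppargc1a, a coactivator of respiratory genes, was below the guide on both arrays (54.1 against 40.5).

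**Figure D4:**
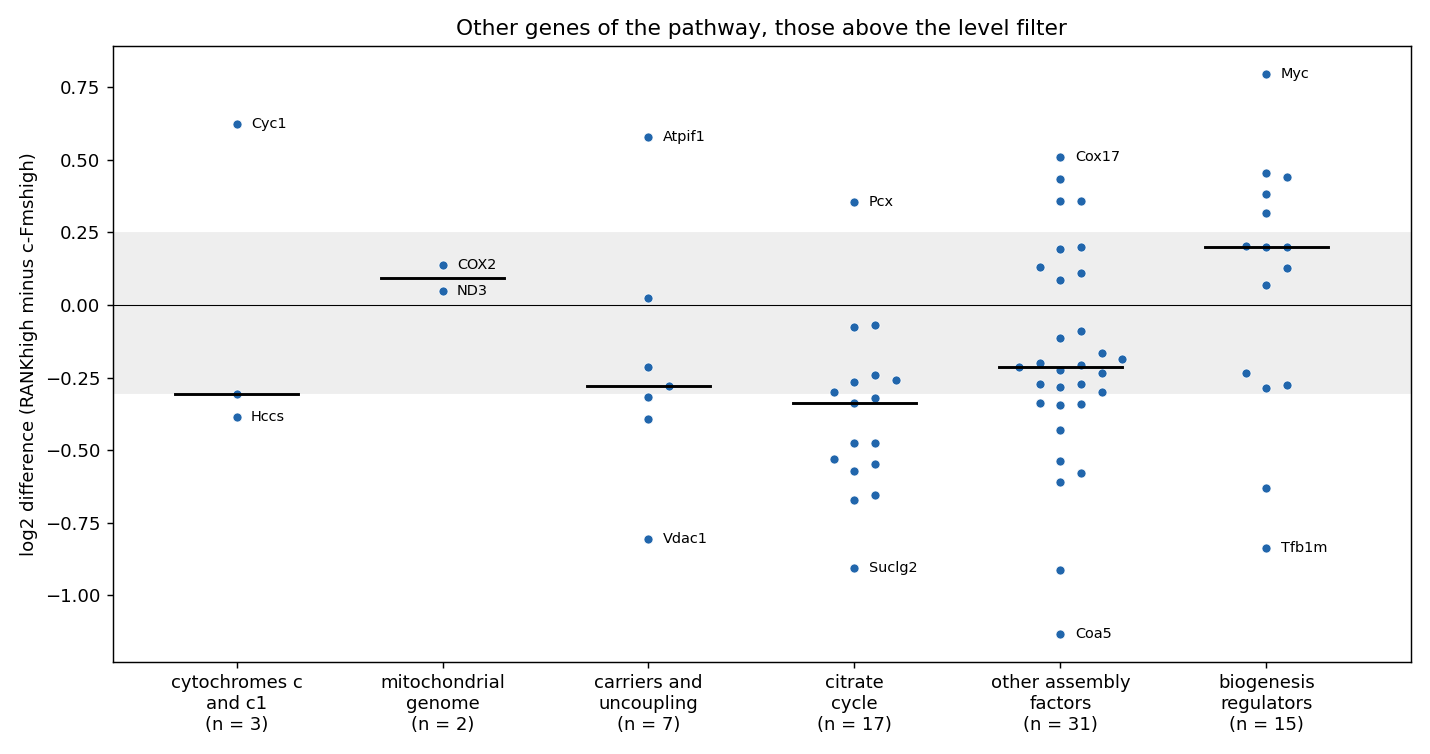
Log2 difference (RANKhigh minus c-Fmshigh) of the other pathway genes above the level filter, 1 point per gene, by list, with list medians as black bars and the quartiles of all 11089 genes as a grey band. Citrate cycle genes lie below 0 apart from Pcx, Cyc1 and Atpif1 stand above 0.5, and Coa5 is the lowest gene shown.

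The promoter letters named above were counted over all genes with a window in the RefSeq table, which held 77 of the 93 members in 82 windows. NRF1 letters occurred in 12.2% of the members' windows, in 3.64% of the 11221 windows of genes above the level filter and in 1.75% of all 32851 windows. ETS letters occurred in 25.6%, 17.5% and 8.86%, YY1 letters in 8.54%, 2.99% and 1.4%, and estrogen-related receptor letters in 8.54%, 3.21% and 4.72%. The median GC content was 58.5% in the members' windows, 60.3% in those of genes above the filter and 52.7% in all. A match is a description of letters and not a bound site. The 10 members with NRF1 letters, among them Uqcrc1, Atp5g2 and Cox6a1, had a median difference of 0.04, and the 65 other matched members above the filter 0.02. For ETS letters the medians were 0.07 over 21 members and 0.01 over 54, for YY1 letters 0.11 over 7 and 0.02 over 68, and for estrogen-related receptor letters 0.05 over 7 and 0.015 over 68. No test was made of these gaps.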

How the data were processed

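Bone marrow populations were measured on 2 single-channel oligonucleotide arrays. The authors deposited linear-scale intensities for each probe set. The submitters' processing notes name GCOS 1.4 and RMA, with no role or order. RMA gives log2 values, and the step behind the linear scale is not given in the sources used here. The plan allowed for either scale, and log2 was taken with no pseudocount. Intensities ran from 19.9 to 13198 and from 20.3 to 13453.

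The platform annotation gave 1 gene for 21780 of the 28815 probe sets and several for 1605, and did not list 5430. Probe sets of a gene were averaged as log2 values. Of those naming several genes, 6 held a member's symbol and were not used. All 93 members' identifiers were found in the GRCm38.p6 gene table, with 0 symbols changed. The arrays' number limits the precision, and no depth applies.

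Genes passed the level filter where the higher value reached 93.6. Counts at 2-fold and 1.5-fold and medians stand in for tests. A fold is a bound where the lower value was not above the 95th percentile of the chemoreceptor genes. Named are, per complex, the 4 highest and 4 lowest genes, those at least 2-fold apart, isoforms with their partners, core subunits, assembly factors at least 1.5-fold apart and, per list, genes at least 2-fold apart or the 3 largest differences. Other genes named were chosen after their values were seen. Members and lists were chosen with earlier results of these data known. The counting was tested on simulated data. Python 3.11.15, pandas 2.3.3 and statsmodels 0.14.6 were used.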

Additional observations from a re-analysis of the deposited data

How the results depend on the processing

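With 1 array per population no array can be left out, no error exists, and small differences cannot be told apart from array-to-array variation. No paired analysis was possible because each population has 1 array. A median was counted as moved when it changed by 0.1 or more on the log2 scale. Quantile normalization gave medians of 0.140 for complex I, 0.102 for complex IV and 0.114 for complex V. With a lowess trend on level removed they were 0.138 for complex I, 0.049 for complex III and 0.115 for complex V. A level filter at 200 gave -0.195 for complex II, and restricting it to subunits, or to ubiquitous subunits, gave -0.349 in both cases, since the assembly factors drop out. At 1.5-fold in place of 2-fold, 2 members were higher and 2 lower, with 1 to 5 higher and 0 to 3 lower over the other settings at that fold, a combination chosen after seeing the data. With no level filter the median was -0.134 for carriers and uncoupling genes and -0.198 for cytochromes c and c1, since undetected genes enter. The cause of the changes under the scalings was not tested. Of the values for these medians and counts, 74 under alternatives stayed within the limit and 13 moved. Of the 4 genes past 1.5-fold, 0 changed sign, but Atp5a1 and Uqcrc1 no longer reached it after quantile normalization (-0.507 and -0.547) or without the level trend (-0.490 and -0.514), nor did Uqcrc1 with a pseudocount of 32 (-0.540). Counting Ndufa4 and Ndufa4l2 in complex I, and using genes with 1 probe set only, both chosen after seeing the data, moved no median or count past the limit.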

Other observations

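Genes of the mitochondrial ribosome, which translates the subunits encoded in the organelle, also differed little as a group. The large subunit (47 genes above the level filter) had a median of 0.08 and the small subunit (28 genes) 0.09. At 1.5-fold or more, 0 large subunit genes were higher and 1 lower, Mrpl33 (385 against 633, 1.65-fold), and in the small subunit 2 were higher and 1 lower. Of all genes that passed, 10.5% were higher and 12.4% lower at that fold. Mrps26 stood at 683 against 359 (1.90-fold higher), Mrps30 at 416 against 275 (1.51-fold higher) and Mrps23 at 363 against 738 (2.03-fold lower on the RANKhigh array).

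The translocases that import nuclear-encoded subunits were examined after the other values had been seen. Of 13 inner membrane translocase genes above the filter 2 showed a deficit past 1.5-fold on the RANKhigh array, Timm17a (1.52-fold) and Timm17b (1.53-fold), alternative forms of a channel component, and the median was 0.04. That share (15.4%) lay between the 12.4% of all genes and the 17.3% of genes in the members' level range. Of 10 outer membrane translocase genes 7 (70%) were lower, with a median of -0.19. For comparison, 51.1% of all genes that passed and 59.7% of those in the members' level range were lower. Tomm34 passed 1.5-fold (1.54-fold lower), 10% of the list. No test of these differences was possible with 1 array per population.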
